A study of Saccharomyces cerevisiae with 12 samples.

Results

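The genes described here are the 30 genes of ergosterol synthesis and sterol esterification in Saccharomyces cerevisiae, chosen by their systematic names from 5769 genes measured on an expression array. They comprise 9 genes of the mevalonate steps, 3 that take farnesyl diphosphate through squalene to lanosterol, 12 of the late steps from lanosterol to ergosterol, 2 electron donors of the sterol oxygenases, 2 transcription factors of the sterol genes and 2 sterol acyltransferases. All 30 had a value on every array and none was lost to a filter. The choice used function and no measured value, but it was made with earlier results of these data known.

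Ergosterol is the main sterol of the yeast plasma membrane. Its synthesis starts from acetyl-CoA, runs through mevalonate and the isoprenoid diphosphates to squalene, and from squalene onward needs molecular oxygen and heme. Surplus sterol is esterified and stored in lipid droplets, and the zinc-cluster factors Upc2 and Ecm22 bind sterol regulatory elements in front of many of the genes and adjust their transcription to sterol supply.

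The tested strains were fhf1, fhf2 and fhf3, UV-induced mutants that the labels describe as fermenting maltose fast, and each was set against its wild-type parent Y55 (JT20150, MAT-alpha MAL1 SUC1). There were 3 separate cultures of each of the 4 strains, grown in stirred semi-aerobic 200 mL fermentations of rich medium with 20% maltose at 22 °C, and harvested on day 2. Each mutant is a single isolate, and the sources used here do not list the mutations it carries. All strains were sampled on day 2, so strain and stage of fermentation cannot be told apart, and in RNA from a whole culture fewer cells with a transcript cannot be told apart from less of it per cell.

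Values are the deposited log2 signals, 1 set per culture, called an array here. Whether a set averages repeated hybridisations is not settled. The deposited array medians ran from 12.09 to 12.98, and each array was therefore shifted so that its median gene lay at 0 relative to the mean of the 12 arrays. The shifts ran from -0.39 to 0.41, and every change below is relative to the median gene. Changes were tested with limma over all genes, with Benjamini-Hochberg adjustment, and a gene is said to have risen or fallen where the adjusted p was under 0.05. The limma p-values set a change against the spread between the 3 cultures of a strain, pooled over all strains. This spread is also drawn by limma towards a value common to all genes. The sterol genes were among the brighter ones: 29 of the 30 lay above the median of all genes by mean signal and 20 had a mean log2 signal over 14. Between cultures of 1 strain the correlation over all genes ran from 0.964 to 0.991.

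**Figure D1:**
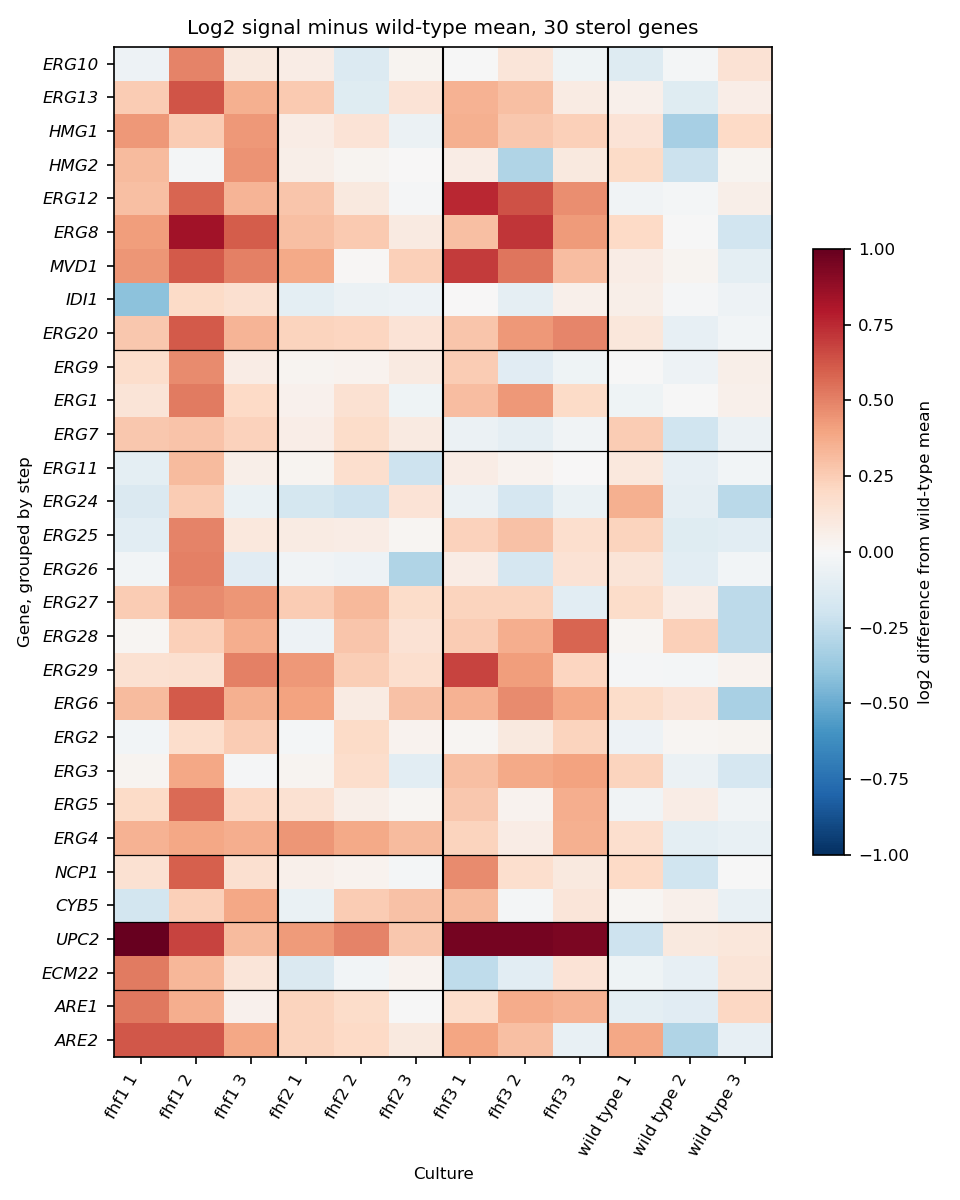
Log2 signal of each of the 30 sterol genes (down the page, grouped by step) in each of the 12 cultures (across), as the difference from the wild-type mean of that gene, with the colour scale ending at -1 and 1. UPC2 stands out in the 3 fhf3 cultures and in fhf1 culture 1, and the mevalonate genes from ERG12 to MVD1 are redder in fhf1 and fhf3 than in fhf2 and wild type.

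In fhf1, 9 of the 30 sterol genes rose against wild type and 0 fell. In that comparison 5.55% of all 5769 genes rose and 11.2% fell. The rises were between 0.37 and 0.67 on the log2 scale, which is 1.29-fold to 1.59-fold. Of the 30 genes, 29 had a log2 fold change above 0, with a median of 0.29 against -0.0028 over all genes, and 17 had an unadjusted p under 0.05. For 14 genes all 3 fhf1 cultures lay above all 3 wild-type cultures, and for 0 genes below them, where 13.2% and 16.3% of all genes did so.

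Most of the rises in fhf1 lay in the mevalonate steps, where 5 of 9 genes rose. ERG8 (YMR220W), which encodes phosphomevalonate kinase, had log2 signals of 14.36, 14.79 and 14.55 in the fhf1 cultures, against 14.15, 13.94 and 13.76 in wild type. The cultures did not overlap, and the log2 fold change was 0.62 (SE 0.14, adjusted p = 0.0062, limma). MVD1 (YNR043W), the gene of mevalonate diphosphate decarboxylase, gave 14.62, 14.78 and 14.67 in fhf1, against 14.24, 14.20 and 14.07 in wild type. It rose by 0.52 (SE 0.13, adjusted p = 0.0093, limma), again with no overlap. ERG12 (YMR208W, mevalonate kinase), ERG13 (YML126C, HMG-CoA synthase) and ERG20 (YJL167W, farnesyl diphosphate synthase) each rose by 0.41, with adjusted p-values of 0.0282, 0.0394 and 0.0231. HMG1 (YML075C) and HMG2 (YLR450W) encode the HMG-CoA reductases, the main controlled step of the pathway. HMG1 averaged 14.12 ± 0.10 in fhf1 and 13.75 ± 0.29 in wild type (SD, n = 3 each), a log2 fold change of 0.37 with an adjusted p of 0.0662 in limma, although its cultures did not overlap. HMG2 was at 0.25 with overlapping cultures. ERG10 (acetoacetyl-CoA thiolase) was at 0.18, and IDI1 (isopentenyl diphosphate isomerase) at -0.02 was the 1 gene of the 30 below 0.

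None of the 3 genes between farnesyl diphosphate and lanosterol passed the test in fhf1. ERG9 (YHR190W, squalene synthase), ERG1 (YGR175C, squalene epoxidase) and ERG7 (YHR072W, lanosterol synthase) had log2 fold changes of 0.24, 0.28 and 0.26. Of the 12 late genes 2 rose. ERG6 (YML008C), which encodes the sterol methyltransferase that sets ergosterol apart from cholesterol, gave 14.63, 14.93 and 14.67 in fhf1, against 14.50, 14.45 and 13.99 in wild type, a rise of 0.43 (SE 0.14, adjusted p = 0.0443, limma). ERG4 (YGL012W), the gene of the last reductase of the pathway, gave 14.15, 14.19 and 14.17 in fhf1, against 13.98, 13.71 and 13.73 in wild type, a rise of 0.37 (SE 0.11, adjusted p = 0.0335, limma). The cultures of both genes did not overlap. The other 10 late genes lay between 0.02 for ERG24, the sterol reductase that acts after the demethylase, and 0.39 for ERG27, the keto-sterol reductase, whose adjusted p was 0.0547. ERG11, the lanosterol demethylase, was at 0.09. In between, the log2 fold change was 0.32 for ERG5, 0.27 for ERG29, 0.21 for ERG28, 0.17 for ERG25, 0.13 for ERG3, 0.13 for ERG2 and 0.12 for ERG26. NCP1, the reductase that feeds electrons to the demethylase, was at 0.31 and CYB5, another electron donor, at 0.15, and neither passed the test.

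UPC2 (YDR213W) had the largest change of the 30 genes in fhf1. Its log2 signals were 13.32, 12.99 and 12.62 in the fhf1 cultures, against 12.10, 12.40 and 12.42 in wild type. The groups did not overlap, the fhf1 cultures were spread over 0.35 (SD, n = 3), and UPC2 rose by 0.67 (SE 0.15, adjusted p = 0.0051, limma). ECM22 (YLR228C), its paralog, was at 0.33 with an adjusted p of 0.101. ARE2 (YNR019W), the major sterol acyltransferase of aerobic cells, gave 13.56, 13.56 and 13.33 in fhf1, against 13.33, 12.64 and 12.86 in wild type. It rose by 0.54 (SE 0.16, adjusted p = 0.0262, limma), although wild-type culture 1 reached the lowest fhf1 culture. ARE1, the other acyltransferase, was at 0.31 with an adjusted p of 0.131.

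Without centring of the arrays 0 of the 30 genes passed the test in fhf1, with a median of 0.34. The fhf1 calls also differed in how much they rested on single arrays. Without fhf1 culture 2 the count fell to 3 genes, ERG8, MVD1 and UPC2, and without wild-type culture 2 or 3 it was 4. The array of fhf1 culture 2 had a deposited median of 12.15, against 12.84 and 12.85 on the other fhf1 arrays. Bright genes as a class also lay above 0 in fhf1: the median log2 fold change of the 398 genes with a mean signal over 14 was 0.17. After cyclic loess, which removes such a trend, that class was at 0.02, the 30 genes had a median of 0.16, and 4 of them rose (ERG8, MVD1, UPC2 and ARE2), where 5.79% of all genes rose.

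**Figure D2:**
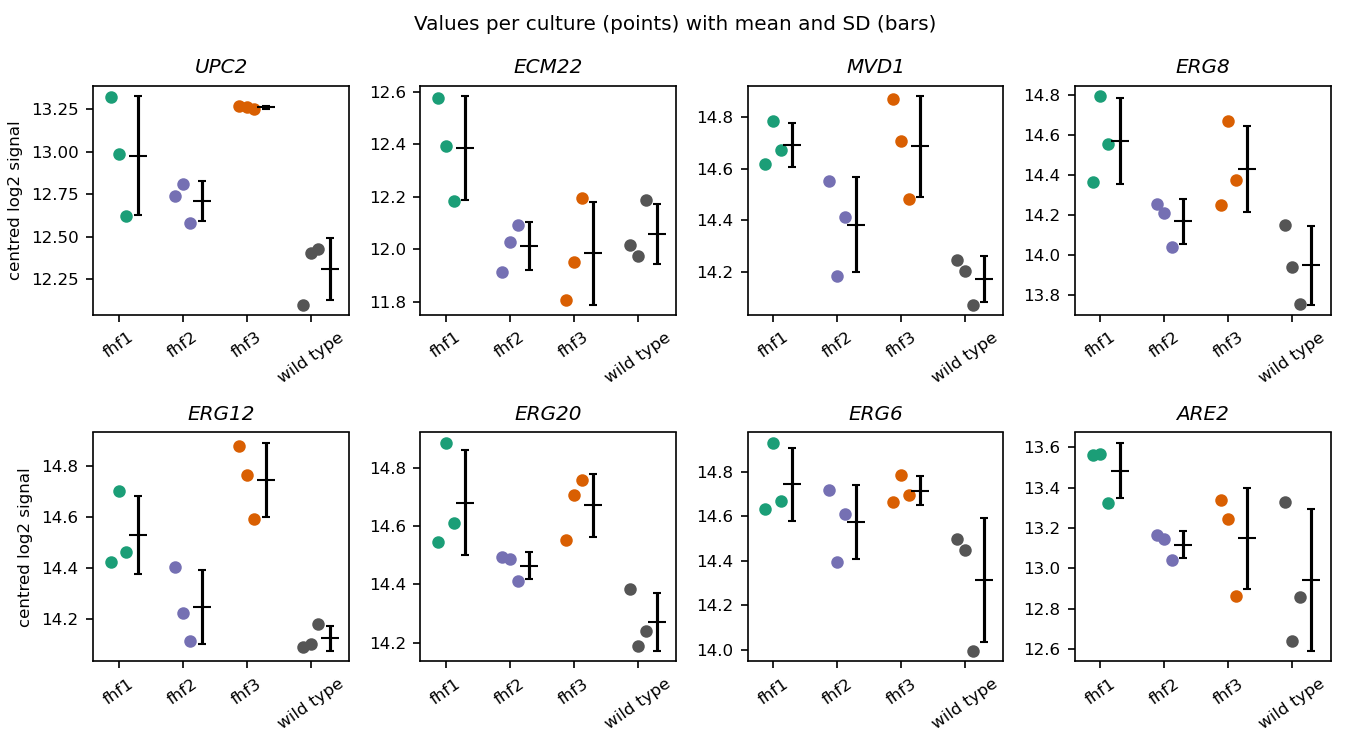
Log2 signal per culture (points), with the mean and SD of 3 cultures (bars), for 8 sterol genes in fhf1, fhf2, fhf3 and wild type, each panel with its own log2 axis that does not start at 0. The fhf3 cultures of UPC2 lie between 13.25 and 13.27, above all wild-type cultures, and ECM22 shows no such separation.

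In fhf2, 0 of the 30 sterol genes passed the limma test in either direction, where 1.61% of all genes rose and 4.84% fell. An unadjusted p under 0.05 was reached by 2 of them, ERG4 and UPC2. ERG4 gave 14.25, 14.19 and 14.12 in fhf2, against 13.98, 13.71 and 13.73 in wild type, with no overlap and a log2 fold change of 0.38 (SE 0.11, adjusted p = 0.0547, limma). UPC2 gave 12.74, 12.81 and 12.58 in fhf2, against 12.10, 12.40 and 12.42 in wild type. These cultures did not overlap either, and the log2 fold change was 0.40 (SE 0.15, adjusted p = 0.136, limma). The median of the 30 genes was 0.085, against 0.0079 over all genes, and 24 genes lay above 0. The 398 genes with a mean signal over 14 had a median of 0.09 in fhf2, and after cyclic loess 15 of the 30 sterol genes lay above 0. All fhf2 cultures lay above all wild-type cultures in 5 genes (ERG20, ERG27, ERG29, ERG4 and UPC2) and below them in 0, where 11.4% and 14.1% of all genes did so.

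The mevalonate genes in fhf2 ranged from -0.07 for IDI1 to 0.22 for ERG8, with a median of 0.09. The late genes ranged from -0.13 for ERG26, the sterol decarboxylase, to 0.38 for ERG4. ARE1 was at 0.13 and ARE2 at 0.18. The 95% interval of the log2 fold change ran from -0.08 to 0.52 for ERG8 and from 0.14 to 0.62 for ERG4.

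In fhf3, 10 of the 30 sterol genes rose against wild type and 0 fell. This mutant differed from wild type in many genes, with 21.8% of all genes higher and 23.6% lower, and the 10 rises and 0 falls are to be read against these shares. Of the 30 genes 25 lay above 0, with a median of 0.23 against 0.035 over all genes, and 12 had an unadjusted p under 0.05. The cultures of 12 genes lay entirely above wild type and those of 0 genes below, where 26.4% and 26.3% of all genes did so.

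UPC2 changed most in fhf3. Its log2 signals were 13.27, 13.26 and 13.25 in the fhf3 cultures, against 12.10, 12.40 and 12.42 in wild type. The 3 fhf3 cultures were almost equal and far above wild type, and UPC2 rose by 0.95, or 1.94-fold (SE 0.15, adjusted p = 5.9e-05, limma). ECM22 gave 11.81, 11.95 and 12.20 in fhf3, against 12.01, 11.97 and 12.19 in wild type, and its log2 fold change was -0.07 with overlapping cultures.

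In the mevalonate steps 4 of 9 genes rose in fhf3. ERG12 gave 14.88, 14.76 and 14.59 in fhf3, against 14.09, 14.10 and 14.18 in wild type, and rose by 0.62 with no overlap (SE 0.12, adjusted p = 0.00048, limma). MVD1 gave 14.87, 14.71 and 14.48 in fhf3, against 14.24, 14.20 and 14.07 in wild type, and rose by 0.51 (SE 0.13, adjusted p = 0.0033, limma). Both enzymes act on mevalonate or its phosphates, as does that of ERG8, which rose by 0.48 (adjusted p = 0.0113). ERG20 rose by 0.40 (adjusted p = 0.0103). HMG1 was at 0.29 with an adjusted p of 0.0868, ERG13 at 0.24, ERG10 at 0.03, IDI1 at -0.01 and HMG2 at -0.05, and none of these passed the test.

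Of the squalene genes ERG1 alone passed the test in fhf3, at 0.31 with an adjusted p of 0.0450. ERG9 was at 0.03 and ERG7 at -0.06. Of the 12 late genes 4 rose: ERG29, tied to the sterol methyl oxidase step, by 0.44 (adjusted p = 0.0142), ERG6 by 0.40 (adjusted p = 0.0272), ERG28, a scaffold of the demethylation complex, by 0.40 (adjusted p = 0.0308), and ERG3, a sterol desaturase, by 0.36 (adjusted p = 0.0355). ERG3 gave 15.27, 15.35 and 15.37 in fhf3, against 15.20, 14.91 and 14.80 in wild type, with no overlap. Of the 8 other late genes ERG24 was lowest at -0.10, and ERG25 (the sterol methyl oxidase, 0.23), ERG5 (another sterol desaturase, 0.22) and ERG4 (0.22) were highest. ERG11 at 0.04, ERG26 at 0.02, ERG2 (the sterol isomerase) at 0.11 and ERG27 at 0.11 lay between. NCP1 was at 0.25, CYB5 at 0.14, ARE1 at 0.30 and ARE2 at 0.21, and none passed the test.

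The fhf3 values depended on the scaling of the arrays, since the median gene was at -0.28 in the deposited values. Without centring 0 of the 30 genes passed the test in fhf3, their median was -0.09 and ERG1 was at -0.0065. Without fhf3 culture 2 the centred count was 5. After cyclic loess 7 of the 30 genes rose (ERG12, ERG8, MVD1, ERG20, ERG29, ERG6 and UPC2), where 22.7% of all genes rose.

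**Figure D3:**
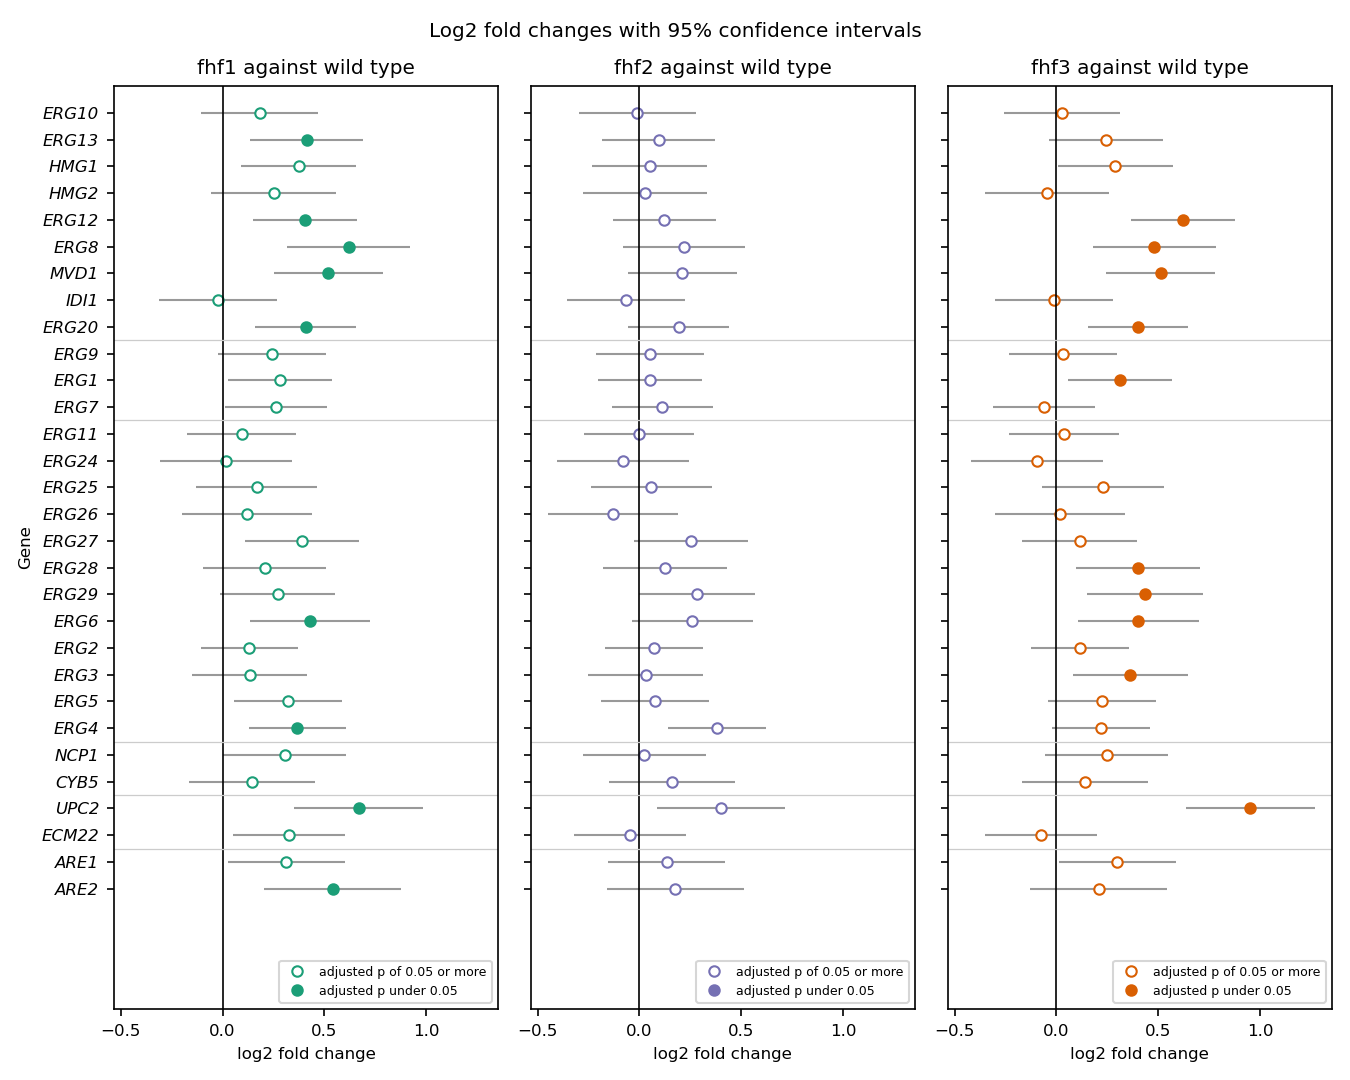
Log2 fold change (across) of the 30 sterol genes in fhf1, fhf2 and fhf3 against wild type, with 95% confidence intervals (lines), filled where the adjusted p was under 0.05. The filled points number 9 in fhf1, 0 in fhf2 and 10 in fhf3, and all lie right of 0.

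The 3 comparisons share the wild-type arrays, so their values are not independent. Side by side, the log2 fold changes in fhf1, fhf2 and fhf3 were 0.41, 0.12 and 0.62 for ERG12, 0.62, 0.22 and 0.48 for ERG8, and 0.52, 0.21 and 0.51 for MVD1. They were 0.41, 0.19 and 0.40 for ERG20, 0.43, 0.26 and 0.40 for ERG6, and 0.67, 0.40 and 0.95 for UPC2. For IDI1 they were -0.02, -0.07 and -0.01, for ERG11 0.09, -0.0027 and 0.04, and for ERG24 0.02, -0.08 and -0.10. In the authors' deposited table, whose test asks for a change beyond 2-fold, 0 of the 30 genes passed in any mutant, where 0.190% of all genes did in fhf1, 0.156% in fhf2 and 2.94% in fhf3.

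The mutants were also compared with each other. Between fhf2 and fhf1 0 of the 30 sterol genes passed the limma test, where 1.77% of all genes did in either direction. In fhf2 against fhf1 3 of the 30 lay above 0, with a median of -0.19 against 0.0075 over all genes. For 10 genes all fhf2 cultures lay below all fhf1 cultures and for 0 above, where 539 and 595 of all 5769 genes did so. After cyclic loess the median of the 30 genes was -0.12. In fhf3 against fhf1, 2 of the 30 were lower and 0 higher, where 25.3% and 23.7% of all genes were. ECM22 gave 11.81, 11.95 and 12.20 in fhf3, against 12.58, 12.39 and 12.18 in fhf1, a fall of 0.40 on the log2 scale (-0.40, adjusted p = 0.0176, limma) with overlapping cultures. ERG7 gave 13.76, 13.72 and 13.78 in fhf3, against 14.09, 14.10 and 14.04 in fhf1, with a log2 fold change of -0.32 and no overlap (adjusted p = 0.0323, limma). Without fhf1 culture 1 or fhf3 culture 1 neither fall passed the test. The fall of ERG7 was lost in 7 of 18 alternatives, among them quantile normalization, cyclic loess and leaving out any 1 of the fhf3 cultures. After cyclic loess 2 of the 30 genes were higher and 1, ECM22, lower in fhf3 than in fhf1, and the median of the 30 genes was 0.03, against -0.06 with centred arrays.

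In fhf3 against fhf2, 2 of the 30 genes were higher and 0 lower, where 22.1% and 24.2% of all genes were. ERG12 gave 14.88, 14.76 and 14.59 in fhf3, against 14.40, 14.22 and 14.11 in fhf2, and was higher by 0.50 (adjusted p = 0.0028, limma). UPC2 gave 13.27, 13.26 and 13.25 in fhf3, against 12.74, 12.81 and 12.58 in fhf2, and was higher by 0.55 (adjusted p = 0.0059, limma). In both genes the cultures did not overlap. An F test over the 4 strains called 8 of the 30 genes (ERG12, ERG8, MVD1, ERG20, ERG4, UPC2, ECM22 and ARE2), where it called 53.8% of all genes, a larger share.

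Pairs of genes with related products were compared within each array, where the scaling of the array cancels. The 9 comparisons used an exact two-sided permutation test of 3 cultures against 3, whose smallest possible p is 0.1. The log2 signal of UPC2 minus that of ECM22 was 1.46, 1.31 and 1.06 in the fhf3 cultures, against 0.08, 0.43 and 0.24 in wild type. The groups did not overlap, and the difference of 1.03 had the smallest possible p (exact p = 0.1, adjusted p = 0.3). In fhf1 the same quantity was 0.74, 0.59 and 0.44, and in fhf2 it was 0.83, 0.78 and 0.49. Both lay above the wild-type cultures, by 0.34 in fhf1 and 0.45 in fhf2, each with an exact p of 0.1 and an adjusted p of 0.3.

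The other pairs overlapped in every comparison. HMG2 minus HMG1 differed from wild type by -0.12 in fhf1, -0.02 in fhf2 and -0.33 in fhf3 (exact p = 0.4, 0.9 and 0.2). ARE1 minus ARE2 differed by -0.23 in fhf1, -0.04 in fhf2 and 0.09 in fhf3 (exact p = 0.4, 1 and 0.7). The wild-type cultures of the acyltransferase pair were spread by 0.42 (SD, n = 3), wider than any of these differences.

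The mevalonate and late steps were set side by side as the median of their genes' differences from the wild-type mean, as a description without a test. For the 9 mevalonate genes this median was 0.30, 0.58 and 0.36 in the fhf1 cultures, and for the 12 late genes it was 0.02, 0.39 and 0.23. The mevalonate median was the higher one in each fhf1 culture. In the fhf3 cultures the mevalonate median was 0.30, 0.30 and 0.24 and the late median 0.23, 0.16 and 0.22. Mevalonate minus late was 0.28, 0.19 and 0.13 in fhf1, 0.17, -0.15 and -0.06 in fhf2, and 0.08, 0.14 and 0.02 in fhf3, against -0.08, 0.02 and 0.12 in wild type. The fhf1 cultures lay above wild type, and those of fhf2 and fhf3 overlapped it. After cyclic loess the median log2 fold change of the mevalonate genes was 0.26 in fhf1 and 0.26 in fhf3, and that of the late genes 0.02 in fhf1 and 0.13 in fhf3. Mean deposited signals ran from 13.28 (HMG2) to 14.58 (ERG10) in the mevalonate genes. In the late genes they ran from 13.05 (ERG29) to 15.23 (ERG25), where the array maxima were 15.33 to 15.62. Whether signals near the top of the scale bear on the late medians was not tested.

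**Figure D4:**
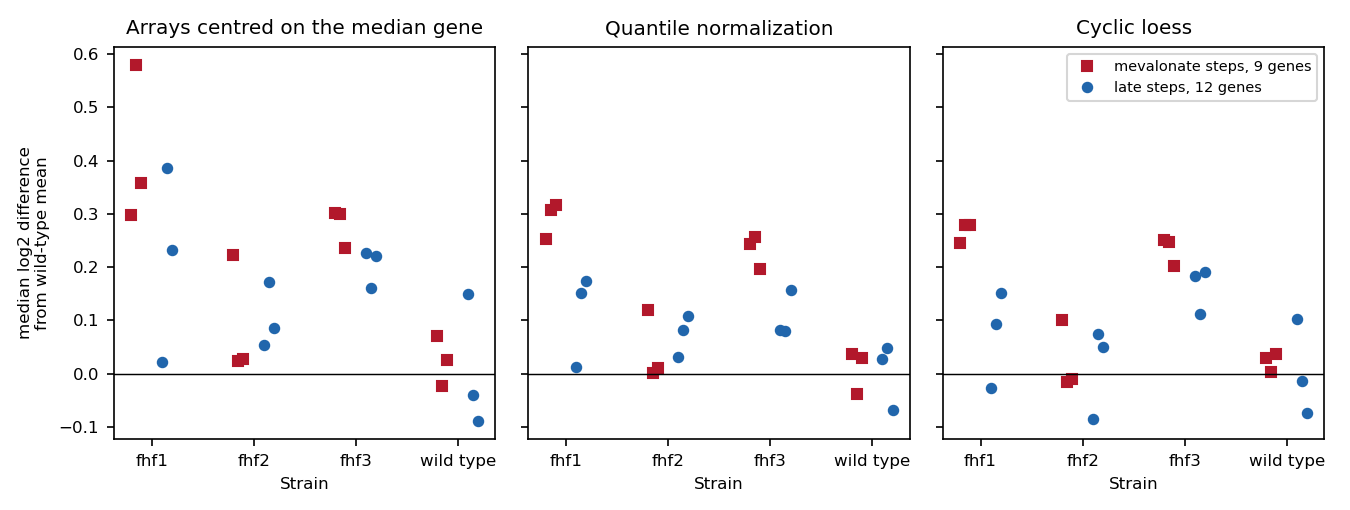
Median log2 difference from the wild-type mean of the 9 mevalonate genes (squares) and the 12 late genes (circles) in each culture of fhf1, fhf2, fhf3 and wild type, after 3 ways of scaling the arrays. The squares of fhf1 lie between 0.30 and 0.58 with centred arrays and above the circle of the same culture.

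Genes around the pathway were read from lists of related function. Of 5 genes of steryl ester hydrolysis and sterol acetylation, 2 rose in fhf1, 1 in fhf2 and 2 in fhf3, and 0 fell, where 5.55%, 1.61% and 21.8% of all genes rose. Without centring 1 rose in fhf1, 0 in fhf2 and 1 in fhf3, and 1 fell in fhf3, so that the call of ATF2 in fhf2 was lost. ATF2, whose product acetylates alcohols and sterols, rose in each mutant on centred arrays. Its log2 signals were 13.40, 13.31 and 13.45 in fhf1, 12.98, 13.21 and 13.12 in fhf2, and 13.55, 13.60 and 13.47 in fhf3, against 12.48, 12.58 and 12.54 in wild type. No mutant culture overlapped wild type, and the log2 fold changes were 0.85 (adjusted p = 2.4e-05), 0.57 (adjusted p = 0.0025) and 1.01 (adjusted p = 6.4e-07) in limma. YEH1, a steryl ester hydrolase, rose by 0.62 in fhf1, and YEH2, another, rose by 0.36 in fhf3.

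In a list of 10 genes of sterol uptake and anaerobic mannoproteins, 6 were higher and 0 lower in fhf3, where 21.8% and 23.6% of all genes were. The list held AUS1, PDR11, SUT1, SUT2 and the mannoprotein genes DAN1, DAN4, TIR1, TIR2, TIR3 and TIR4. AUS1, an ABC transporter that imports sterol when oxygen is short, gave 13.70, 13.41 and 13.66 in fhf3, against 11.94, 12.14 and 12.30 in wild type, a rise of 1.47 (SE 0.13, adjusted p = 7.2e-08, limma). SUT1, a transcription factor of sterol uptake, rose by 1.24, DAN4, a cell wall mannoprotein of anaerobic cells, by 1.13, and SUT2, a relative of SUT1, by 0.79. In fhf1 AUS1 gave 11.92, 11.68 and 12.03, and in fhf2 12.10, 11.95 and 12.16, and it passed the test in neither. AUS1 was higher in fhf3 than in fhf1 by 1.72 and than in fhf2 by 1.52. Of the 10 genes, 0 rose and 1 fell in fhf1, where 5.55% of all genes rose and 11.2% fell, and 0 passed the test in fhf2. The gene that fell in fhf1 was SUT2, with a log2 fold change of -0.88. Its signals in fhf1 and wild type lay below 11.73, the first quartile of mean signal over all genes. Without centring 0 of the 10 passed the test in fhf1, while 2 rose after quantile normalization and 1 after cyclic loess. Without centring 3 of the 10 passed the test in fhf3, all higher.

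Among 11 regulators that link oxygen and heme to sterol genes, 0 rose and 3 fell in fhf3, where 21.8% of all genes rose and 23.6% fell, so the count of falls is near the share of all genes. These were HAP2 (-1.09), HAP4 (-0.72) and HAP5 (-0.67), which encode subunits of the heme-activated CCAAT-binding complex, and all 3 fell without centring too. The list also held HAP3, which did not pass the test in fhf3. HAP2 gave 10.85, 10.94 and 10.85 in fhf3, against 11.87, 12.03 and 12.02 in wild type. In fhf1 2 of the 11 rose, where 5.55% of all genes rose. They were MOT3 (0.44), a repressor of genes silenced in air, and SPT23 (0.38), an activator of fatty acid desaturation. Without centring 0 of the 11 rose in fhf1, and 1 rose after quantile normalization or cyclic loess. In fhf2 0 of the 11 passed the test. A list of 10 heme-related genes held HEM genes of heme synthesis together with HMX1 and DAP1. Of these, HEM13 (0.58) and HEM2 (0.47) rose and HEM3 (-0.59) and HEM15 (-0.38) fell in fhf3. HEM2 alone rose in fhf1, by 0.41, and 0 of the 10 passed the test in fhf2. Without centring or after cyclic loess 0 of the 10 rose in fhf1. The 2 rises and 2 falls in fhf3 are close to the 21.8% and 23.6% of all genes, and without centring 0 of the 10 rose and 2 fell.

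Of 18 sterol transport genes, 2 rose and 1 fell in fhf1, 1 rose and 1 fell in fhf2, and 1 rose and 6 fell in fhf3. Of all genes 5.55% rose and 11.2% fell in fhf1, 1.61% and 4.84% in fhf2, and 21.8% and 23.6% in fhf3. HES1, an oxysterol-binding protein homolog, rose in each mutant on centred arrays and in none without centring, where 0 of the 18 genes rose. It gave 14.13, 14.22 and 14.15 in fhf1, 14.09, 14.13 and 14.10 in fhf2, and 13.98, 14.13 and 14.28 in fhf3, against 13.72, 13.45 and 13.57 in wild type. The log2 fold changes were 0.58 in fhf1, 0.52 in fhf2 and 0.55 in fhf3, with adjusted p-values of 0.0017, 0.0079 and 0.00074 in limma. LAM4, a sterol transfer protein of membrane contact sites, had log2 fold changes of -0.44 in fhf2 and -1.75 in fhf3. OSH3 (0.42) rose and PRY2 (-0.54) fell in fhf1, and OSH7 (-0.68) and NPC2 (-0.53) fell in fhf3. Without centring 0 of the 18 fell in fhf1 or fhf2, and 6 fell in fhf3. After quantile normalization or cyclic loess 0 fell in fhf2 either, so the call of LAM4 there was lost under each of these scalings.

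Of 14 genes that control the turnover of HMG-CoA reductase, 0 passed the test in fhf1 and fhf2. In fhf3 UBC7 (0.45) and NSG1 (0.44) rose and YOS9 (-0.30) fell, where 21.8% of all genes rose and 23.6% fell. Without centring 0 of the 14 passed the test in fhf3. Of 13 genes on the branches that leave the isoprenoid diphosphates, COQ2 of ubiquinone synthesis rose in fhf1 by 0.51 and 0 passed the test in fhf2. In fhf3 3 rose, led by MOD5 (0.99), a tRNA isopentenyltransferase, and 4 fell, led by SRT1 (-0.75), COQ1 (-0.72) and COX10 (-0.61). With 21.8% of all genes higher and 23.6% lower in fhf3, the counts of the 13 branch genes are close to those shares. Without centring 1 of the 13 rose and 4 fell in fhf3, and 0 rose in fhf1.

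Mating-type genes were read because the labels give the strain as MAT-alpha, and they differed in fhf3. Of 7 a-specific genes 0 rose and 5 fell in fhf3, where 21.8% of all genes rose and 23.6% fell. The mean log2 signal of the 7 genes was 9.75 to 9.97 in the fhf3 cultures, against 10.54 to 10.67 in wild type. These means are dim, below 11.73, the first quartile of mean signal over all genes. Of 5 alpha-specific genes 3 rose and 0 fell, with means of 13.41 to 13.66 in fhf3, against 12.92 to 13.21 in wild type. Without centring 1 of these 5 rose and 0 fell, and 5 of the 7 a-specific genes fell. In fhf1 1 a-specific gene rose and 1 fell and 1 alpha-specific gene fell, where 5.55% of all genes rose and 11.2% fell. In fhf2 1 a-specific gene fell, where 4.84% of all genes fell. Without centring 0 genes of either list passed the test in fhf1 or fhf2, and after cyclic loess 0 a-specific genes fell in fhf2. The part of the mating-type genes in the sterol results was not tested.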

How the data were processed

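Per the labels, oligo(dT) priming turned polyadenylated RNA into double-stranded cDNA, which was read with Cy3 on a NimbleGen array of strain S288C with 8 probes per gene. Transcripts of opposite strands are therefore not told apart. The labels speak of hybridisation in triplicate, and whether repeats were averaged is not settled. The authors deposited log2 signals per culture and a table with log2 fold changes, a t statistic (a score), p-values and adjusted p-values, and the submitters' processing notes name limma. The sources used here do not say how background was corrected and signals normalized. The deposited log2 fold changes equal differences of the group means of the deposited log2 signals, within 5e-08, with arrays not aligned.

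The value table has 5872 entries, of which 103 hold no value, and 5769 genes were analysed. Gene names came from an R64 table, in which 5763 were found. Each array was shifted by 1 constant, so that the median over genes of its difference from the gene's mean over 12 arrays was 0. Group means were fitted to all 12 arrays with limma 3.58.1 in R 4.3.3 (lmFit and eBayes, 8 residual and 9.41 prior degrees of freedom), with Benjamini-Hochberg adjustment over 5769 genes within a comparison. The median standard error of a log2 fold change was 0.13, and the number of arrays limits the precision. The fit was tested on simulated data. Alternatives were no centring, quantile normalization, cyclic loess, leaving out the dimmest 25% of genes, an intensity trend, a replicate block, only the groups compared, and each culture left out.

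All 30 sterol genes are named. Of each list other than the mating-type lists, up to 4 called genes per comparison with wild type are named with values. These are the genes with the largest changes. Members and lists were chosen with earlier results of these data known. No sequence was analysed here, and a planned search of promoters for sterol and heme regulatory motifs was not run.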

Additional observations from a re-analysis of the deposited data

How the results depend on the processing

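Of the calls against wild type, those of UPC2, MVD1 and ERG8 in fhf1 and of UPC2, MVD1, ERG12 and ERG20 in fhf3 held under all 18 alternatives that kept the arrays aligned, as did UPC2 and ERG12 in fhf3 against fhf2. Without centring the counts of sterol genes called were 0 in fhf1 and 0 in fhf3 against wild type, 5 in fhf3 against fhf1, 0 in fhf3 against fhf2 and 0 by the F test, and ERG1 in fhf3 was at -0.0065 there and in the authors' deposited table, whose 2-fold test called 0 in fhf1 and 0 in fhf3. Refits of a 2-fold test on centred arrays, added after seeing the data, called 0 too. Quantile normalization gave 5 in fhf1, 1 in fhf2 and 6 in fhf3, and 1 in fhf3 against fhf1. After it, the share of sterol genes that rose in fhf3 against wild type was below the share of all genes that rose. With centred arrays it was above that share. Cyclic loess gave 4 in fhf1 and 5 in fhf3 against fhf2. With only the groups compared the counts were 3 in fhf1 and 5 in fhf3 against fhf2. The intensity trend gave 1 in fhf2, and leaving out the dimmest genes gave 4 in fhf3 against fhf2. Over all genes, the split of higher and lower calls in fhf1 was 320 and 645 with centring, 34 and 120 without it and 446 and 514 after quantile normalization, and in fhf3 it was 1257 and 1360 with centring and 114 and 1317 without.

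Leaving out 1 culture at a time gave 3 to 10 sterol genes called in fhf1, 0 to 1 in fhf2, 5 to 10 in fhf3, 0 to 0 in fhf2 against fhf1, 0 to 3 in fhf3 against fhf1, 2 to 3 in fhf3 against fhf2 and 6 to 12 by the F test. For the pairs it gave 0.94 to 1.14 for UPC2 minus ECM22 in fhf3. The causes were not tested.

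Whether replicate numbers pair the samples was not settled. Same-numbered cultures of a mutant and wild type had deviations correlated between -0.24 and 0.45. Differently numbered cultures were not set beside them. With the replicate block the counts were 11 in fhf1, 1 in fhf2 and 10 in fhf3 against wild type, 4 in fhf3 against fhf1, 4 in fhf3 against fhf2 and 12 by the F test.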
